A study of Mus musculus with 30 samples.

Results

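The genes described here are 9 genes by which mouse macrophages are commonly recognised, namely Spi1, Cebpa, Csf1r, Adgre1, Itgam, Mertk, Cd14, Cd68 and Lyz2. They were taken by symbol from the deposited count table, and all 9 were found among its 54146 genes. The set was selected on levels measured in these clones, above all the wide spread of Adgre1 among wild-type clones and its high level in knockout clones. Levels by clone and differences between knockout and wild type are therefore given as descriptions without a test. The response to interferon-gamma (IFNG) was tested in a fit over all genes, but it was among the results known when the genes were chosen, so that its p-values for them are not independent evidence. The cells were J774A.1, a mouse macrophage-like line, and polyadenylated RNA was sequenced from 5 clones. WT1, WT2 and WT3 were grown from single cells that had not been electroporated. KO1 and KO2 came from cells electroporated with Cas9 and a pair of guides, and are homozygous for the loss of a B2_Mm2 element, a short interspersed repeat, that lies in Dicer1 within the first intron (chromosome 12). Each clone was either left untreated (UT) or treated for 4 h with IFNG at 100 ng/mL. Each combination of clone and treatment has 3 libraries, which makes 30. With 3 WT and 2 KO clones, each grown from a single cell, the deletion, the editing procedure and differences that arise between clones of any origin cannot be told apart.

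Macrophage identity rests on a small group of transcription factors, chiefly PU.1 (encoded by Spi1) and the C/EBP family (of which Cebpa encodes C/EBP-alpha), which act together at promoters and enhancers of myeloid genes. Among their known targets are genes for the receptor of macrophage colony-stimulating factor, for adhesion and scavenging receptors, and for lysosomal enzymes. IFNG is secreted by T cells and natural killer cells and turns macrophages toward microbial killing and antigen presentation.

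The 9 genes lie on 6 chromosomes, so that no single chromosomal region holds the group. In the annotation of the deposited table (mm10), Adgre1 (ENSMUSG00000004730.14) spans 57358686 to 57483529 on the plus strand of chromosome 17. Spi1 (ENSMUSG00000002111.8) spans 91082390 to 91115756 and Mertk (ENSMUSG00000014361.5) spans 128698956 to 128802894, both on the plus strand of chromosome 2. Cebpa (ENSMUSG00000034957.10) lies from 35119293 to 35121928 and Itgam (ENSMUSG00000030786.18) from 128062640 to 128118491, both on the plus strand of chromosome 7. Cd68 (ENSMUSG00000018774.13) covers 69664213 to 69666153 on the minus strand of chromosome 11, and Lyz2 (ENSMUSG00000069516.8) covers 117277331 to 117282321 on the minus strand of chromosome 10. No member lies on chromosome 12, which carries the edited element.

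Promoter sequence was read for 5 members (RefSeq table, GRCm38.p6, the assembly also called mm10), as 250 bases before and 50 bases after the start. Letters GAGGAA, the core bound by PU.1, were searched on both strands, as was TTGCNNAA, a C/EBP motif. Of 32851 promoters of this length, 28.3% held the PU.1 core and 10.8% the C/EBP letters. The 250 bases before the start are shown for Itgam and Cd68, the members whose promoters held matches, and for Mertk, the member with the largest IFNG response. They are read 5′ to 3′ along the gene, with the matches in capitals. They come from chr7:128062390-128062639 on the plus strand (Itgam), chr11:69666171-69666420 on the minus strand (Cd68) and chr2:128698665-128698914 on the plus strand (Mertk).
Itgam: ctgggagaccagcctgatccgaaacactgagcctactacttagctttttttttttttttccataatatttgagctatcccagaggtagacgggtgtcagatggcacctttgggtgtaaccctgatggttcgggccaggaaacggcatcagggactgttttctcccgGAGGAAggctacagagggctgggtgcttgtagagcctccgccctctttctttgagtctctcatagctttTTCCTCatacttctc
Cd68: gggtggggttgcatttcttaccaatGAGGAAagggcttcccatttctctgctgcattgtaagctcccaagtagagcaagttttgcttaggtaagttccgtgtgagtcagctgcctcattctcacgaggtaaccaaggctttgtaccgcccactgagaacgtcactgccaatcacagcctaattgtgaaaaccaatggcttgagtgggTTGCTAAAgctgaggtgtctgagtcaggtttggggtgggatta
Mertk: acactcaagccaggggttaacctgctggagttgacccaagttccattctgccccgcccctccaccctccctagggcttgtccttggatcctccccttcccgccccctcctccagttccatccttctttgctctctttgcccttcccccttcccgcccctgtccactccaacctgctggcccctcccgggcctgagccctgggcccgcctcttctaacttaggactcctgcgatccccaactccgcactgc
Itgam held the PU.1 core 84 bases before the start on the strand of the gene, 15 bases before it on the other strand (TTCCTC), and again after the start at base 33. Cd68 held it 225 bases before the start and, on the other strand, at base 30 after it, with the C/EBP letters 43 bases before the start. Mertk, Lyz2 and Cebpa held none of these letters in the 300 bases. A match is a description of letters and not evidence of binding.

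Depth ran from 15566122 to 37992642 counted fragments per library with a median of 23682133.5. It differed between groups, with medians from 16226070 in treated WT2 to 32404008 in treated KO2, and every treated WT2 library was below every KO2 library. Levels are given as CPM, the usual count scaled to the library total, after adjustment by TMM factors, and every member had at least 28 fragments in every library. Irf1 and Gbp2b, standard IFNG targets, had mean levels of 22.5 to 24.98 and 2.70 to 3.43 CPM in untreated WT clones and of at least 735.6 and 1091 CPM in the treated ones. Dicer1 measured 96.7 to 130.2 CPM over the 9 untreated WT libraries and 70.5 to 108.4 CPM over the 6 untreated KO libraries, ranges that overlap. The deleted element is intronic, so exon counts cannot show the deletion itself. All 9 members were counted in every library, as a macrophage label requires. Of markers of 10 other cell types, those of B, NK, mast, erythroid and epithelial cells were near 0 (summed level at most 0.602 CPM). Granulocyte, dendritic cell, fibroblast and endothelial lists each had 1 marker that reached 1 CPM, namely S100a8, Zbtb46, Pdgfra and Cdh5. Their summed levels in WT libraries were 1.23 to 3.53, 1.46 to 5.65, 0.331 to 2.92 and 1.199 to 2.21 CPM, and in KO libraries 1.53 to 3.39, 3.28 to 5.45, 0.663 to 1.35 and 1.11 to 2.13 CPM. Of the T cell markers only Lck and Cd5 reached 1 CPM, with a summed list level of 4.50 to 51.4 CPM in WT and 7.02 to 16.7 CPM in KO libraries, while Cd3g and Cd8a had no fragment. The part of such transcripts in the results was not tested.

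**Figure D1:**
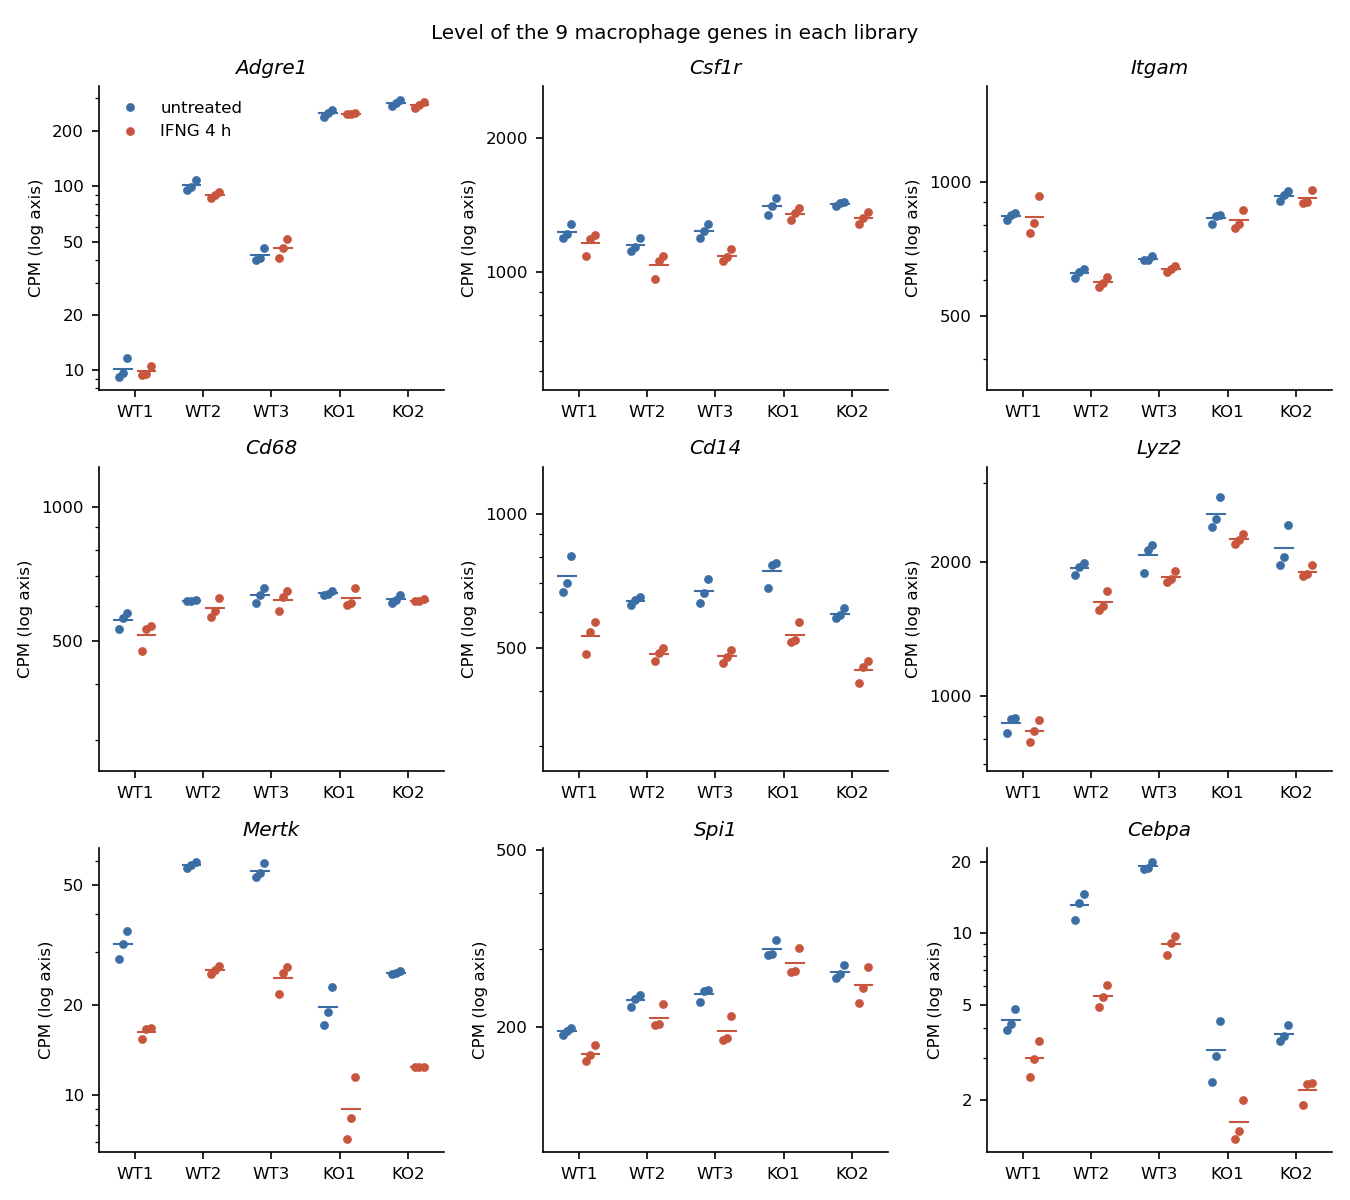
Level of each member in each of the 30 libraries, as TMM-scaled CPM on a log axis, by clone, with untreated libraries in blue and IFNG-treated libraries in red. Points are libraries and short lines are the means of 3 libraries. Adgre1 runs from 10.19 CPM in WT1 to 282.6 CPM in KO2 with little change on IFNG, while Mertk, Cebpa and Cd14 sit lower in the treated libraries of every clone.

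In bulk libraries, fewer cells that express a gene and less of its RNA per cell cannot be told apart. Levels of the members relative to one another can be read only per length of exon. Averaged over the 30 libraries, Lyz2 had the highest level at 1369 CPM per kb, followed by Cd68 (480.0), Cd14 (371.8), Csf1r (254.0), Itgam (153.1), Spi1 (86.6), Adgre1 (41.7), Mertk (6.45) and Cebpa (2.46). Spi1 thus stood above the surface receptor genes Adgre1 and Mertk in this order, and Cebpa at its bottom.

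Spi1, the gene of PU.1, stood higher in the KO clones. Untreated libraries held 191.8, 196.3 and 199.3 CPM in WT1, 221.9, 231.7 and 236.0 CPM in WT2 and 227.8, 240.8 and 241.9 CPM in WT3. The KO1 libraries held 291.0, 291.6 and 314.9 CPM and the KO2 libraries 257.8, 264.0 and 276.6 CPM. WT2 and WT3 overlapped, and every KO library lay above every WT library. The same order of KO above WT held after IFNG, where WT libraries ran from 167.9 to 225.4 CPM and KO libraries from 227.1 to 300.9 CPM. Across all genes of a mean of at least 1 CPM, 4.56% of 12345 had all KO libraries above all WT libraries when untreated, and 3.52% did after IFNG.

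Cebpa, whose product drives myeloid commitment, showed the reverse and was the least abundant member. Untreated WT1 libraries held 3.94, 4.17 and 4.78 CPM, WT2 libraries 11.4, 13.4 and 14.6 CPM, and WT3 libraries 18.5, 18.7 and 19.95 CPM. In KO1 they held 2.36, 3.04 and 4.26 CPM and in KO2 3.51, 3.71 and 4.13 CPM. WT1 was therefore close to the KO clones, and its range overlapped those of KO1 and KO2. After IFNG the KO libraries (1.37 to 2.35 CPM) no longer overlapped WT1 (2.48 to 3.53 CPM), with 5.07% of all genes having every treated KO library below every treated WT library.

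Csf1r encodes the receptor for macrophage colony-stimulating factor, on which survival of most macrophages depends. It (ENSMUSG00000024621.15) runs from 61105572 to 61132149 on the plus strand of chromosome 18. It varied little, with untreated means of 1232 ± 46.3, 1149 ± 39.0 and 1237 ± 44.6 CPM in WT1, WT2 and WT3 and of 1404 ± 63.8 and 1423 ± 14.4 CPM in KO1 and KO2 (SD, n = 3 libraries each). KO1 overlapped KO2 and WT1 overlapped WT3. The 6 untreated KO libraries (1340 to 1468 CPM) lay above the 9 WT libraries (1116 to 1283 CPM), and the same held after IFNG (1279 to 1391 against 966.1 to 1211 CPM). The gap between genotypes was small, at 0.23 on the log2 scale when untreated.

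Adgre1 encodes F4/80, the adhesion G protein-coupled receptor used as the standard surface marker of mouse macrophages. It set the clones apart more widely than any other member. In untreated WT1 it measured 9.27, 9.66 and 11.6 CPM. In WT2 the 3 libraries held 95.3, 99.2 and 108.2 CPM, and in WT3 39.8, 40.9 and 46.0 CPM. KO1 had 238.5, 248.2 and 259.9 CPM and KO2 had 272.5, 281.2 and 294.0 CPM. No 2 clones overlapped, so that the order KO2, KO1, WT2, WT3, WT1 was complete, and it was the same after IFNG. The lowest library of any clone still held 201 fragments of Adgre1, so that the low level of WT1 was well above the limit of detection. Among untreated WT clones, the highest mean (WT2) and the lowest (WT1) were 3.25 apart on the log2 scale. The mean of the KO clones was 2.89 above the mean of the WT clones. A range and a difference of means are unlike measures, and both KO clones lay above every WT clone.

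Itgam, the gene of the integrin chain CD11b, did not follow Adgre1. Its untreated means were 839.2 ± 15.01 CPM in WT1, 623.0 ± 15.6 in WT2, 670.8 ± 8.53 in WT3, 827.1 ± 22.2 in KO1 and 929.8 ± 25 in KO2 (SD, n = 3). WT1, lowest for Adgre1, was second for Itgam and overlapped KO1, and the other clones were separate. Itgam values carry a limit, because 3450 of its exon bases (68.7%) are shared on the same strand with a second annotated gene, Gm49368, and the authors counted such fragments for each gene.

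Mertk encodes a receptor tyrosine kinase for uptake of apoptotic cells. Untreated libraries measured 28.5, 31.8 and 35.1 CPM in WT1, 57.1, 58.2 and 59.8 CPM in WT2 and 53.2, 54.8 and 59.4 CPM in WT3. In KO1 they measured 17.2, 18.9 and 22.9 CPM and in KO2 25.3, 25.6 and 25.9 CPM. WT2 and WT3 overlapped, and every KO library was below every WT library in both treatments. Of all genes, 5.59% had every untreated KO library below every untreated WT library.

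Cd14, the co-receptor that passes lipopolysaccharide to TLR4, set the KO clones apart from one another. The gene (ENSMUSG00000051439.6) lies on the minus strand of chromosome 18, from 36725074 to 36726736. KO1 had the highest untreated mean (742.2 ± 51.7 CPM) and KO2 the lowest (596.6 ± 14.4 CPM), with WT1 at 723.9 ± 71.5, WT2 at 638.2 ± 14.8 and WT3 at 669.8 ± 43.2 CPM (SD, n = 3). Untreated KO2 libraries (584.3 to 612.5 CPM) lay below every WT library (622.2 CPM or more), and the other neighbours in this order overlapped. After IFNG, KO2 (417.2 to 465.5 CPM) overlapped WT3 (463.0 to 493.4 CPM).

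Cd68, a heavily glycosylated lysosomal membrane protein, had the smallest untreated range over the 5 clones (0.20 on the log2 scale between the highest and lowest clone mean). After IFNG that of Cd14 was as small (0.27 against 0.28), and among untreated WT clones those of Csf1r (0.11) and Cd14 (0.18) were no wider than that of Cd68 (0.18). Its untreated means were 557.8 ± 23.04 CPM in WT1, 615.7 ± 2.04 in WT2, 633.3 ± 23.98 in WT3, 640.8 ± 6.96 in KO1 and 620.1 ± 12.1 in KO2 (SD, n = 3). Only WT1 stood outside the ranges of its neighbours.

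Lyz2 encodes lysozyme M, the secreted bacteriolytic enzyme of phagocytes. Untreated WT1 libraries held 825.6, 886.0 and 891.0 CPM, while WT2 held 1866, 1947 and 1984 CPM and WT3 held 1888, 2130 and 2182 CPM. KO1 held 2389, 2500 and 2801 CPM and KO2 1969, 2049 and 2413 CPM. WT1 stood apart below all other libraries, and the other neighbours in the order KO1, KO2, WT3, WT2 overlapped. Lyz2 has a close paralog, Lyz1, on the same chromosome from 117287797 to 117292868, and how unique alignment divides fragments between them was not tested. Untreated Lyz1 means followed a similar order at a lower level, with 22.6 ± 8.84 CPM in WT1, 57.1 ± 16.5 in WT2, 60.9 ± 13.5 in WT3, 111.9 ± 6.49 in KO1 and 89.9 ± 7.56 in KO2 (SD, n = 3).

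The clone range, defined as the difference between the highest and lowest of the 5 clone means of log2(CPM + 0.5) in untreated cells, ordered the members from Adgre1 to Cd68. It was 4.73 for Adgre1, a 26.6-fold span, and 0.113% of 12345 genes had a range at least as wide. Cebpa followed with 2.43 (1.07% of genes at least as wide), then Lyz2 with 1.56 (2.92%) and Mertk with 1.55 (2.96%). Spi1 (0.61), Itgam (0.58), Cd14 (0.31), Csf1r (0.31) and Cd68 (0.20) lay under 1, and the last 3 of these were also under the median of all genes (0.37). A range over 1 was thus seen in 4 members, beside 7.96% of all genes, and nothing is read from this count because the levels had a part in the choice of genes. The median of the 9 members was 0.61. Among the WT clones alone the ranges were 3.25 for Adgre1, 2.03 for Cebpa, 1.25 for Lyz2, 0.87 for Mertk and at most 0.43 for the rest.

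**Figure D2:**
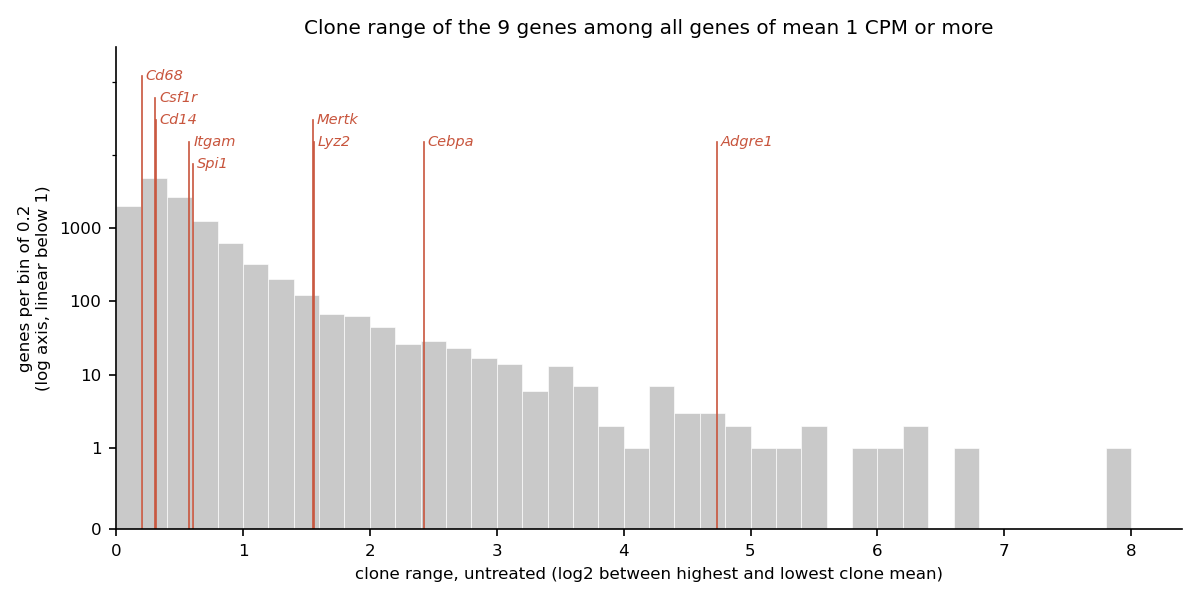
Histogram of the clone range of the 12345 genes of a mean of at least 1 CPM, in bins of 0.2 on the log2 scale, with the gene count on a log axis that is linear below 1. Red lines mark the members, of which Adgre1 (4.73), Cebpa (2.43), Lyz2 (1.56) and Mertk (1.55) lie past 1.

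Clone accounted for most of the variation of 8 of the 9 members over the 30 libraries, and IFNG for most of that of Cd14. Of the sum of squares of log2(CPM + 0.5), clone took 99.7% for Adgre1, 95.5% for Lyz2, 94.6% for Itgam, 81.3% for Spi1, 78.3% for Cebpa, 74.5% for Csf1r, 70.1% for Cd68, 53.4% for Mertk and 17.2% for Cd14. IFNG took 75.0% for Cd14, 44.2% for Mertk and 17.6% for Cebpa, and 0.00493% for Adgre1. Libraries of the same clone and treatment accounted for 20.8% in Cd68, the highest share of the members, and 0.207% in Adgre1, the lowest. The median gene had 53.7% between clones, 9.09% for IFNG and 16.6% between libraries.

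**Figure D3:**
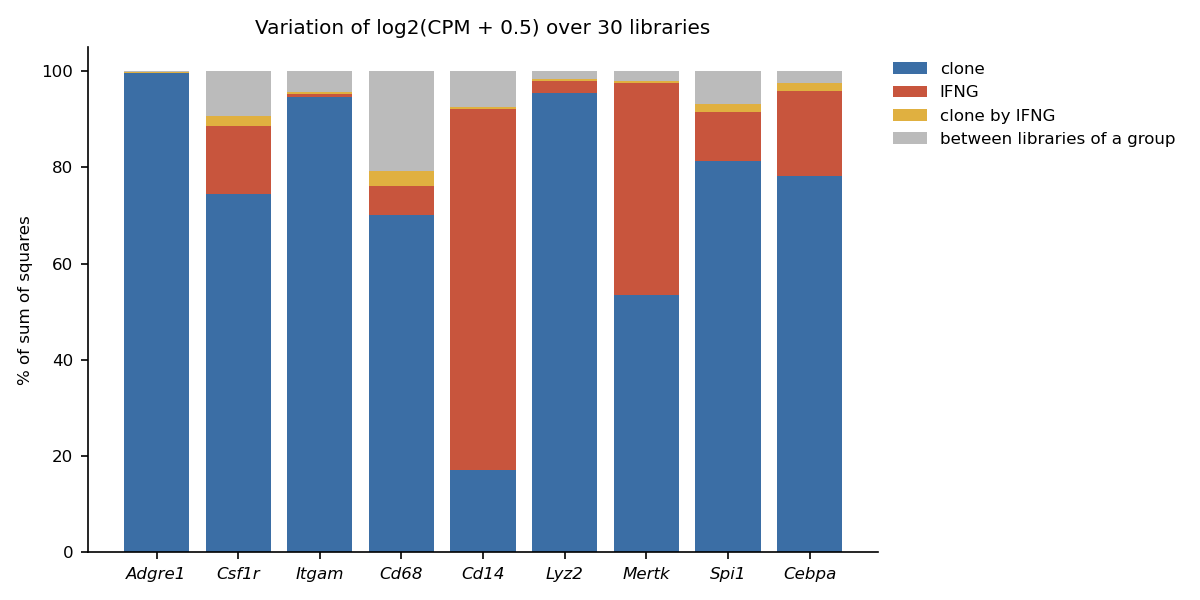
Share of the sum of squares of log2(CPM + 0.5) over 30 libraries that falls to clone, IFNG, clone by IFNG and libraries of the same group, as stacked bars that add up to 100% for each member. Clone takes 99.7% for Adgre1, and IFNG takes 75.0% for Cd14.

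Set as KO minus WT, with the mean of the 2 KO clones against the mean of the 3 WT clones in untreated cells, the members fell on both sides of 0. Adgre1 was higher in KO by 2.89, Lyz2 by 0.63, Spi1 by 0.36, Itgam by 0.31, Csf1r by 0.23 and Cd68 by 0.068 on the log2 scale. Cebpa was at -1.46, Mertk at -1.05 and Cd14 at -0.023. For Cd14 the KO clones lay on opposite sides of the WT mean (0.13 in KO1 and -0.18 in KO2). The share of all genes with both KO clones on 1 side was not computed, so nothing is read from the other members' shared side. Every KO library was above every WT library for Adgre1, Csf1r and Spi1 in both treatments, and below for Mertk in both. The raised and the lowered members do not sort by role, since the transcription factor genes Spi1 and Cebpa stood on opposite sides.

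Genes around Adgre1 varied less among the clones than Adgre1 itself. Within 1 Mb of its start, 27 genes had a mean of at least 1 CPM, with a median clone range of 0.51, and 2 of them had a range over 1, namely C3 (2.14) and Tnfsf14 (1.39). All of the 27 except Rpl7a-ps5, at 479.7 kb, start before Adgre1, so the region after it is hardly covered. In WT1, where Adgre1 deviated by -2.91 from the mean of the 5 clones on the log2 scale, the neighbours had a median deviation of 0.20 and none was lower than -0.065. In KO1 and KO2 Adgre1 deviated by 1.64 and 1.83, and its neighbours by medians of 0.14 and 0.10. In WT2 Adgre1 was at 0.34 and the neighbour median at -0.25, and in WT3 both were below 0, at -0.90 and -0.20. The 622 other genes of chromosome 17 had medians of 0.072 in WT1, -0.16 in WT2, -0.16 in WT3, 0.13 in KO1 and 0.12 in KO2. The chromosome median was on the same side of 0 as Adgre1 in WT3, KO1 and KO2 and on the other side in WT1 and WT2. C3, which encodes complement component C3 and starts at -154.7 kb from the Adgre1 start, was highest in KO1 (deviation 1.01) and lowest in WT3 (-1.13), while WT1 was at 0.62. Around Spi1 the picture differed. In WT1 Spi1 deviated by -0.31, and the median of its 26 neighbours was -0.39. In KO1 and KO2 Spi1 was at 0.30 and 0.13 and the neighbour median at 0.12 and 0.093. In WT2 and WT3 the signs were opposite, at -0.080 and -0.037 for Spi1 and 0.10 and 0.076 for its neighbours. Whether the Spi1 level follows its region was not tested.

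**Figure D4:**
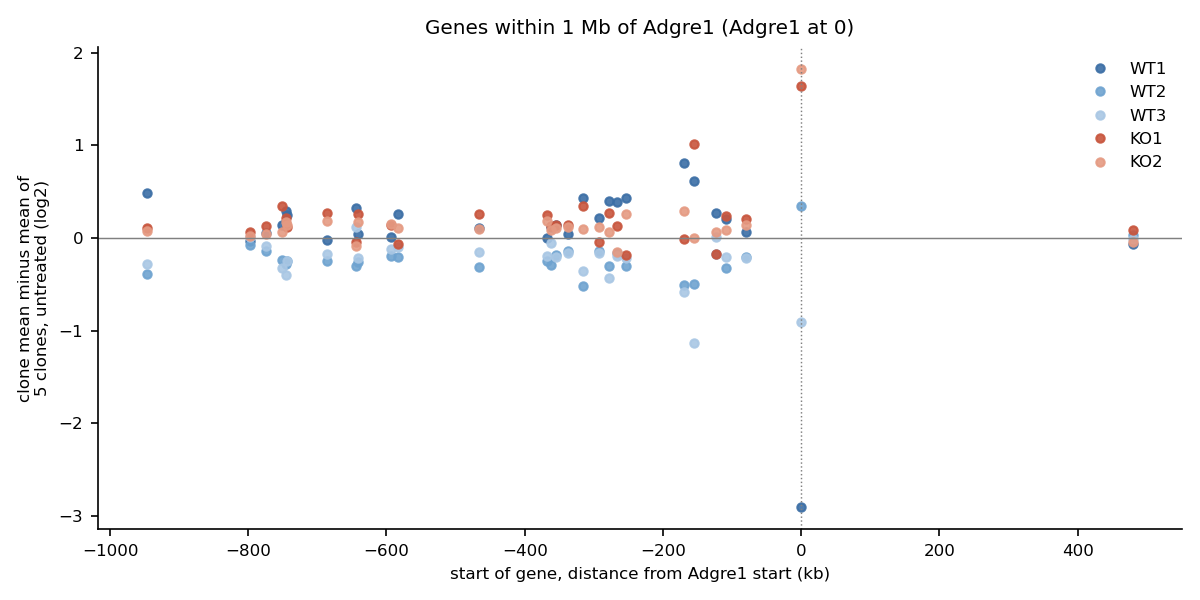
Deviation of each untreated clone mean from the mean of the 5 clones (log2 scale) for Adgre1, at 0 on the horizontal axis, and for the 27 genes within 1 Mb, by the distance of their starts in kb. Points are clones, and Adgre1 spans -2.91 (WT1) to 1.83 (KO2) while no neighbour in WT1 is lower than -0.065.

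For the 4 members with a clone range over 1, genes of like pattern were sought among 1129 other genes with such a range whose mean reached 1 CPM in any of the groups (a wider pool than the 12345 genes, which had that mean over all libraries), by Pearson's r over the 10 means of clone and treatment. These points share 5 clones, and r describes likeness only. Cpne8, which encodes a copine, a calcium-dependent membrane-binding protein, was most like Adgre1 (r = 0.971), with untreated means of 76.4 CPM in WT1, 116.2 in WT2, 101.9 in WT3, 171.6 in KO1 and 159.0 in KO2. Pianp (r = 0.942) and Mbp (r = 0.936) came next. Pianp ran from 0.0112 CPM in WT1 to 23.2 CPM in KO2. Mbp was low in every clone, from 0.356 CPM in WT1 to 1.355 CPM in KO2, with KO1 (1.03) below WT2 (1.29). Lyz2 was most like Cadps2 (r = 0.979), Pdrg1 (0.978) and Kif5a (0.967), Mertk was most like Kcnj10 (0.985), Pram1 (0.982) and Stk17b (0.975), and Cebpa was most like Neurl1a (0.976), Sox12 (0.969) and Rdh10 (0.969). Untreated means of Neurl1a were low too, from 0.1575 CPM in KO1 to 2.97 CPM in WT3. Members with a clone range under 1 could not appear in this search. None of the 4 others appeared among the genes most like another member, and nothing is read from this.

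IFNG lowered 7 of the 9 members over all clones and raised none at an edgeR adjusted p under 0.05. In the same fit, 27.9% of the 14870 genes tested were called lower and 24.6% higher. Mertk fell the most, with a log2FC of -1.09 ± 0.046 (SE, edgeR adjusted p = 4.85e-21), a drop to 0.468 of its untreated level. Cebpa fell with a log2FC of -0.97 ± 0.077 (adjusted p = 2.99e-13) and Cd14 with -0.45 ± 0.028 (adjusted p = 4.2e-16). Lyz2 (log2FC -0.17), Spi1 (-0.15) and Csf1r (-0.12) fell by less, with adjusted p of at most 2.73e-05. Cd68 passed narrowly at -0.050 ± 0.021 (adjusted p = 0.0451), and the call was lost in 16 of the 30 fits that left out a single library (adjusted p 0.0502 to 0.0934). Itgam (-0.036, adjusted p = 0.163) and Adgre1 (-0.030 ± 0.034, adjusted p = 0.482) did not pass, although Itgam did without WT1 IFNG library 3 (adjusted p = 0.0146). With totals left unscaled, the median of all genes moved from -0.0080 to -0.064, all 9 members were called lower, and the calls over all genes went from 46.9% higher to 31.3% higher. Without a term for clone, 3 members were called lower. DESeq2 also called 7 members lower and 0 higher.

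The libraries show the size of these changes. Mertk fell from 57.1 to 59.8 CPM in untreated WT2 libraries to 25.4 to 26.9 CPM in treated ones, and in KO2 from 25.3 to 25.9 CPM to 12.4 to 12.5 CPM. Treated KO2 libraries were thus below every untreated library of any clone. Cebpa went from 18.5 to 19.95 CPM down to 8.10 to 9.73 CPM in WT3 and from 3.51 to 4.13 CPM down to 1.90 to 2.35 CPM in KO2. Cd14 went from 682.6 to 775.2 CPM to 514.9 to 570.9 CPM in KO1. For Mertk, Cebpa and Cd14, all 3 treated libraries lay below all 3 untreated libraries in each of the 5 clones, which was the case for 9.68% of all genes. Lyz2 and Csf1r were so separated in 3 clones, Spi1 in 2, Adgre1 in WT2, Itgam in WT3 and Cd68 in none.

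**Figure D5:**
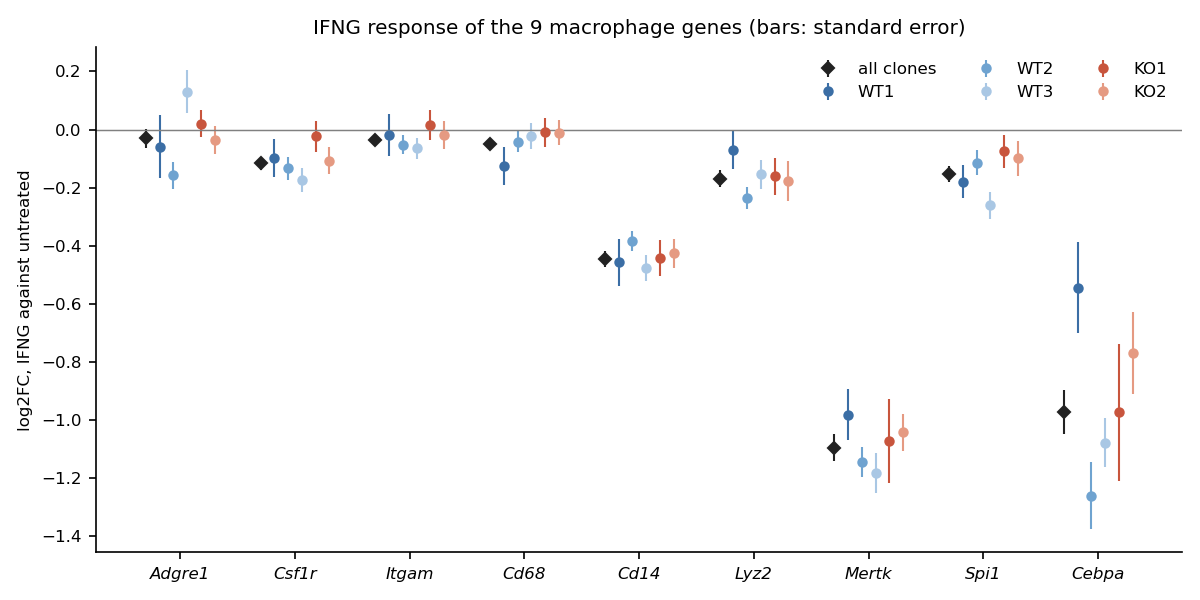
Log2FC of IFNG-treated against untreated libraries for each member, over all clones (black diamonds) and within each clone (circles), with bars of 1 standard error. Mertk, Cebpa and Cd14 lie below 0 in every clone, and Adgre1 lies between -0.16 (WT2) and 0.13 (WT3).

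Fitted clone by clone, Mertk, Cebpa and Cd14 fell in all 5 clones. The Mertk log2FC was -0.98 in WT1, -1.15 in WT2, -1.18 in WT3, -1.07 in KO1 and -1.04 in KO2, and that of Cd14 ranged from -0.48 in WT3 to -0.38 in WT2. Cebpa varied more, from -0.54 ± 0.16 in WT1 (edgeR adjusted p = 0.0226) to -1.26 ± 0.12 in WT2 (adjusted p = 1.7e-08). Its WT1 call was lost in 3 of 6 fits that left out a library (adjusted p up to 0.112) and with DESeq2 (adjusted p = 0.0506). The number of members called lower was 4 in WT1, 7 in WT2, 6 in WT3, 3 in KO1 and 3 in KO2, beside 9.47%, 17%, 17.5%, 13.2% and 13.2% of the genes tested in each clone. DESeq2 called 3, 6, 6, 4 and 4 members lower in the same order of clones. With totals left unscaled, the median of all genes in KO1 moved to -0.10, and 5 members were called in KO1 and 5 in KO2. Spi1 was called in the 3 WT clones, and the call held under every left-out library only in WT3 (-0.26, adjusted p = 0.000245). In WT1 it was lost in 5 of 6 such fits and in WT2 in 4 of 6. Lyz2 was called in WT2 and WT3, and in the KO clones its values were much the same (-0.16 ± 0.065 and -0.18 ± 0.069) with edgeR adjusted p of 0.0799 and 0.0732. DESeq2 called it lower in KO1 and KO2 (DESeq2 adjusted p = 0.0248 and 0.0324). So did edgeR with no count filter and in a single fit over 30 libraries. The WT3 call of Lyz2 was lost without untreated library 1 or 3 or IFNG library 2 (adjusted p 0.0712 to 0.121). Csf1r was called in WT2 and WT3, and in WT2 the call was lost without untreated library 1 or IFNG library 2 (adjusted p 0.0859 and 0.0785).

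The IFNG response of Adgre1 had opposite signs in WT2 and WT3, with small values in both. It was lower in WT2 (-0.16 ± 0.047, edgeR adjusted p = 0.0127), a call that was lost without untreated library 1 (adjusted p = 0.121). In WT3 it was at 0.13 ± 0.075 (adjusted p = 0.195), and it was called higher there without IFNG library 1 (0.22, adjusted p = 0.0168). The test of differences between clones in the IFNG response gave an unadjusted p of 0.0752 for Adgre1 and an adjusted p of 0.496.

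No member passed the test for an IFNG response that differs between KO and WT, nor the test for one that differs among the 5 clones. In the first, 0 of 9 had an unadjusted p under 0.05 and 1.02% of all genes were called by edgeR. In the second, 1 of 9 did (Cebpa, unadjusted p = 0.0164, adjusted p = 0.225) and 3.68% of all genes were called. DESeq2 called 0 of 9 in either. The difference in response (KO minus WT) was estimated at 0.040 ± 0.097 for Mertk, 0.15 ± 0.17 for Cebpa, -0.0042 ± 0.057 for Cd14, 0.088 ± 0.055 for Spi1, -0.024 ± 0.060 for Lyz2, 0.060 ± 0.044 for Csf1r and 0.015 ± 0.067 for Adgre1 (log2 scale, SE).

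The other genes of the same functions were taken from 6 lists of 100 genes in all, of which 86 could be tested for IFNG. Of these, 32 rose and 31 fell, 73.3% in all beside 52.4% of all genes. The edgeR test for a response that differs among the 5 clones called 12 of the 86, beside 3.68% of all genes. It called 5 of 21 myeloid transcription factor genes, 3 of 9 CSF genes, 3 of 9 LPS genes and 1 of 15 uptake genes. In the surface receptor and lysosomal lists it called 0. The log2FC values below are taken over all clones and do not show such differences. Among 21 myeloid transcription factor genes 8 rose and 9 fell. Tfec (log2FC 3.62), Egr2 (2.71) and Irf8 (2.39) rose the most, and Irf8, a partner of PU.1 in macrophage and dendritic cell development, went from 168.7 to 994.6 CPM in WT1 and from 136.5 to 627.8 CPM in KO1. Tfec rose from untreated means of at most 0.660 CPM. Among 9 genes of CSF receptors and ligands 6 rose and 2 fell. Csf1, the gene of the main CSF1R ligand, rose (3.93 ± 0.11) while Csf1r fell, from 9.24 to 70.4 CPM in WT1 and from 2.38 to 54.1 CPM in KO1. Csf2rb2 and Csf2rb, beta chains of the receptors for GM-CSF and related cytokines, each rose by 1.44, but the genes are near-identical neighbours and fragments may be divided between them.

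Among 19 surface receptor and adhesion genes 7 rose and 7 fell. Adgre5, the CD97 gene of the same receptor family as Adgre1, fell by 1.16 from low levels (3.68 to 1.42 CPM in WT3 and 1.52 to 0.811 CPM in WT2). Its untreated means in WT1, KO1 and KO2 were at most 0.127 CPM, and the call was lost without a term for clone (edgeR adjusted p = 0.249). Cx3cr1, the fractalkine receptor gene, fell by 0.92 and Vsir, an inhibitory receptor gene, by 0.79. Among 15 genes of apoptotic cell uptake 6 rose and 4 fell. Timd4 (2.83), a phosphatidylserine receptor gene, Pros1 (1.41), which encodes the MERTK ligand protein S, and C1qb (0.62), a chain of complement C1q, rose while Mertk fell. Pros1 remained at or below 3.795 CPM and Timd4 at or below 2.11 CPM in every group. Gas6, the gene of another MERTK ligand, went the other way, with a lower treated mean in every clone (no test given). It went from 73.4 to 59.7 CPM in WT3 and from 9.10 to 6.17 CPM in KO1. Among 13 lysosomal and secreted products 1 rose and 6 fell, with Plin2 (-0.61), Lyz1 (-0.27, adjusted p = 0.0435, not called by DESeq2, and lost without single libraries of every clone) and Lamp2 (0.21) changing most. Among 9 genes of LPS recognition and signalling, 4 rose and 3 fell, with Myd88 (1.25), Ly86 (0.46) and Cd180 (0.36) changing most. The mean of Tlr4, whose product receives lipopolysaccharide from CD14, rose in WT1 (108.5 to 113.5 CPM). It fell in the other clones, from 137.4 to 98.2 CPM in WT2 and from 133.8 to 126.4 CPM in KO2.

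Between untreated KO and WT libraries, 26 of 81 listed genes were called by edgeR, 8 higher and 18 lower, which is 32.1% beside 26.6% of all genes. Libraries of a clone share that clone, and with counts summed per clone, 2 KO against 3 WT clones, 0 listed genes were called by edgeR (12 had an unadjusted p under 0.05, and the lowest adjusted p was 0.244). Without WT1 there were 22 higher and 28 lower, without KO1 3 higher and 4 lower, and without WT3 9 lower. The calls below therefore speak of these 5 clones. Of 13 uptake genes tested, 5 were lower and 0 higher (38.5% called, beside the 26.6% of all genes). Among them were Stab1, a scavenger receptor gene (log2FC -2.69 ± 0.53, edgeR adjusted p = 0.00141 across libraries), and Gas6 (-3.11 ± 0.78, adjusted p = 0.00783). Stab1 measured 99.6 CPM in WT1 but 649.6 and 887.7 CPM in WT2 and WT3, beside 76.8 and 92.2 CPM in KO1 and KO2. Gas6 ran from 73.4 CPM in WT3 to 0.221 CPM in KO2, and lost its call without WT3 (adjusted p = 0.0577). As with Mertk and Cebpa, WT1 was the WT clone nearest to the KO clones for Stab1 and Gas6. For Adgre1, Lyz2, Spi1, Cd68 and Lyz1, in contrast, WT1 was the WT clone farthest from the KO clones when untreated.

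Of 18 surface receptor and adhesion genes tested, 2 were higher and 6 lower (44.4% called), with Marco higher (0.84) and Siglec1 (-0.80) and Cd33 (-0.75) lower. Of 9 genes of LPS recognition and signalling, 2 were higher and 3 lower (55.6% called). Myd88, the adaptor gene of most Toll-like receptors, was higher (0.31 ± 0.034, edgeR adjusted p = 7.88e-06), with 58.8 to 60.1 CPM in the WT clones and 73.9 and 74.3 CPM in the KO clones. Of 8 CSF-related genes tested, 1 was higher (Tyrobp, 0.23) and 2 lower (37.5% called), Csf1 among them (-1.07 ± 0.30, edgeR adjusted p = 0.013). Myeloid transcription factor genes had 1 higher, Cebpe (0.30), and 2 lower. Of 13 lysosomal and secreted products tested, 2 were higher and 0 lower (15.4% called), Lyz1 among them (1.11 ± 0.28, edgeR adjusted p = 0.00851). Without KO1, Cebpe, Csf1, Tyrobp, Siglec1, Stab1, Lyz1 and the uptake gene Dock2 (-0.20 with all clones) were no longer called.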

How the data were processed

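RNA-seq of 30 libraries of J774A.1 clones was used (3 WT and 2 KO clones, UT or IFNG, 3 libraries each). The authors removed adapters with BBDuk, used HISAT2 2.1.0 and SAMtools 1.10 for alignment to mm10, and deposited raw counts of fragments per gene, made with featureCounts 1.6.2 in reversely stranded mode with fragments over several genes counted for each. The methods name a RefSeq annotation and the table header Gencode vM18. Of 54146 genes, 29004 had a count. Only the table of all 30 libraries was used, of 14 deposited tables, and 0 of its count columns stayed unmapped. Columns named wtc1 and wtc3 were taken as WT2 and WT3, whose own deposited tables hold them. Libraries are numbered within a group for naming only. Labels do not say whether libraries of a clone are separate cultures, so p-values measure the spread between these libraries. No pair of libraries agreed within sampling noise.

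Counts were tested with edgeR 4.0.16 in R 4.3.3 (filterByExpr, TMM, glmQLFit, glmQLFTest), adjusted by Benjamini-Hochberg over all genes with a threshold of 0.05, for IFNG over all clones (terms clone and IFNG), within each clone, for the genotype by IFNG and clone by IFNG interactions, and for KO against WT in untreated libraries. A standard error is the log2FC divided by the root of the F statistic. CPM, clone ranges and sums of squares used TMM factors and a pseudocount of 0.5, over 12345 genes of a mean of at least 1 CPM. Fits were tested on simulated data. For KO against WT the simulated libraries had no differences shared by a clone, so the simulation says nothing of how such differences affect those calls. Members and lists were chosen with earlier results of these data known. Named listed genes are the 3 of each list with the largest log2FC past the threshold and a group mean of at least 1 CPM, for KO against WT with both KO means outside the WT means. Lck, Cd5, S100a8, Zbtb46, Pdgfra, Cdh5, C3 and Tnfsf14 were named after their values were seen. Alternatives were DESeq2 1.42.0, RLE normalization, no filter, at least 10 counts in every library, no clone term, a single fit over 30 libraries, counts summed per clone, pseudocounts of 1 and 0.1, and leaving out each library or clone. Fits with unscaled totals were added after seeing the data. Python 3.11.15 and matplotlib 3.10.9 served for tables and plots.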

Additional observations from a re-analysis of the deposited data

Results flagged for a closer look

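Groups of 3 libraries are too small for the search for outlying samples, and no member passed a test of a response that differs between genotypes. Of the other genes named, 3 had an IFNG response that differed between KO and WT clones by edgeR's interaction test. Myd88 rose less in the KO clones, by -0.24 ± 0.055 on the log2 scale (edgeR adjusted p = 0.0229), from untreated means of 73.9 and 74.3 CPM to treated means of 155.1 and 164.1 CPM. The WT clones went from 59.8, 58.8 and 60.1 CPM to 134.9, 157.8 and 163.3 CPM, so that the treated levels of the genotypes overlapped. The Myd88 call was lost without WT2, WT3, KO1 or KO2 (adjusted p 0.0687 to 0.418) and without KO1 untreated library 1, KO1 IFNG library 2 or KO2 untreated library 3 (adjusted p 0.0516 to 0.058). Dicer1, the gene that holds the deleted element, had a difference of -0.36 ± 0.049 (edgeR adjusted p = 5.53e-05), with WT means of 118.7 and 151.8 CPM and KO means of 88.0 and 87.2 CPM before and after IFNG. Gbp2b had a difference of 0.85 ± 0.13 (edgeR adjusted p = 0.000164), with WT means of 3.13 and 1345 CPM and KO means of 2.26 and 1793 CPM. Treated Gbp2b libraries of the genotypes overlapped (1076 to 1708 CPM in WT and 1621 to 1942 CPM in KO). Treated Dicer1 libraries did not (132.2 to 171.2 CPM in WT and 71.4 to 104.5 CPM in KO). How the Dicer1 and Gbp2b calls fare without single libraries or clones is not reported here.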

How the results depend on the processing

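No paired analysis was possible because the columns carry no replicate numbers, so the planned replicate block was not run. Over all clones, Mertk, Cebpa, Cd14, Lyz2, Spi1 and Csf1r kept their fall in all 30 fits that left out a library and in all 5 that left out a clone. Without a clone term, 3 members and 12 listed genes were called lower and 4865 genes were called in all, against 7, 31 and 7798. Cd68 lost its call without WT1 untreated library 2 or 3, WT1 IFNG library 2, any WT2 untreated library, WT2 IFNG library 1 or 2, WT3 untreated library 1 or 3, WT3 IFNG library 2, KO1 untreated or IFNG library 1 or 2, or KO2 untreated library 3, without WT1, WT2, WT3 or KO1, with no count filter (adjusted p = 0.0506) and with at least 10 counts in every library (adjusted p = 0.0663). With unscaled totals, 5 members were called lower in KO1 and 5 in KO2. Leaving out libraries gave 2 to 3 members lower in WT1, 4 to 8 in WT2 and 0 to 1 higher in WT3. For KO against WT, the 8 higher and 18 lower listed genes became 22 and 28 without WT1, 3 and 4 without KO1 and 0 and 0 with counts summed per clone, with 9 lower without WT3, and the 3689 calls over all genes became 6472, 1674 and 1 under the first 3 of these. Genes called for genotype by IFNG went from 151 to 384 with no count filter, 564 without WT1, 37 without WT2, 82 without WT3, 21 without KO1 and 107 to 243 without single libraries, and those for clone by IFNG from 547 to 919 with no count filter. The cause was not tested. The clone range after IFNG was 0.38 for Csf1r and 0.28 for Cd68, against 0.31 and 0.20, and other settings moved no clone range by more than the spread between libraries.

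Signs turned only in values near 0 that did not pass. The Adgre1 response was 0.010 over all clones without WT2, -0.084 in KO1 with unscaled totals and -0.010 there in a single fit, and its genotype difference was -0.019 with unscaled totals, -0.078 without WT2 and -0.0050 without KO1. The Itgam response in KO1 was -0.089 with unscaled totals, -0.0021 with no filter and -0.015 in a single fit. The genotype difference of Cd14 was 0.0029 with DESeq2, 0.0029 with RLE, 0.027 without WT2 and 0.013 without KO1, and that of Lyz2 0.022 without WT1. Without single libraries, Adgre1 ranged from -0.12 to 0.048 in WT1 and from -0.014 to 0.047 in KO1, Itgam from -0.091 to 0.036 in WT1, from -0.029 to 0.045 in KO1 and from -0.049 to 0.0027 in KO2, Cd68 from -0.054 to 0.018 in WT3, from -0.054 to 0.016 in KO1 and from -0.022 to 0.00037 in KO2, and Csf1r in KO1 from -0.062 to 0.0046. The genotype difference ranged from -0.017 to 0.055 for Adgre1, -0.027 to 0.013 for Cd14, -0.051 to 0.016 for Lyz2 and -0.040 to 0.10 for Mertk.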
